A study of Mus musculus with 5 samples.

Results

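Esrp1, Grhl2, Marveld2, Rab25, Ap1m2, Spint1, Spint2 and Epcam are genes of epithelial cells, and several of them are also transcribed in germ cells of mice. They were followed in newborn mouse ovaries that lack Lhx8, a LIM homeodomain transcription factor gene of oocytes. The 8 genes were chosen by name, with their differences between Lhx8 null and wild type arrays already known from earlier work on the same arrays, so those differences are given here as a description and without p-values. They had 13 probe sets, each annotated with that 1 gene symbol, among 45101 on the array. All 8 genes were among the 10916 genes bright enough to be tested, of 18193 measured.

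Total RNA came from ovaries of female mice at postnatal day 0.5 on a C57/BL6/129SVEV hybrid background. The Lhx8 null group had 3 arrays (replicates 1, 2 and 3) and the wild type group of that background had 2 (replicates 2 and 3). Each array carried the RNA of 1 pool of 50 ovaries from at least 25 animals, so a replicate is a pool and its spread hides that between animals. The sources used here do not describe the null allele, and in whole ovaries fewer cells of a type and less RNA per cell cannot be told apart.

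Epithelial cells are held together by adherens and tight junctions, sort membrane proteins to an apical and a basolateral side, and keep membrane-bound serine proteases in check with Kunitz-type inhibitors. Grainyhead-like transcription factors and epithelial splicing regulators maintain this state. A newborn mouse ovary holds oocytes, which carry E-cadherin on their surface, and epithelial cells of the ovarian surface, and a dissected ovary may carry pieces of the neighbouring tubules of the oviduct and mesonephros.

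The deposited values were array signals scaled to the same trimmed mean of 500 on every array. Differences are null minus wild type on the scale log2(signal + 16) after quantile normalization, with the standard error (SE) of limma's model, and a gene was called when its Benjamini-Hochberg adjusted p over all tested genes was below 0.05. Lhx8 itself had signals of 332.6, 159.0 and 347.4 on null arrays, against 6450.1 and 5223.1 on wild type arrays. Of all tested genes 25.6% were called higher and 22.3% lower in null ovaries. Among called genes 53.5% were higher in null ovaries. This share was 33.6% after centring every array at its own median, where the median difference of all tested genes was -0.18 in place of 0.04. The median on the log2(signal + 16) scale before normalization ran from 7.00 to 7.18 on null and from 6.80 to 6.83 on wild type arrays. Actb signal at the 3' end over that at the 5' end, which increases as RNA degrades, was 1.48 to 1.69 on null arrays and 1.39 to 1.43 on wild type arrays, and the hybridisation control BioC averaged 2395.9 to 2844.45 on null and 1038.15 to 1371.45 on wild type arrays. The part of either in the results below was not tested.

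The 8 epithelial genes did not move together. Marveld2 and Esrp1 were lower in Lhx8 null ovaries, Spint1, Epcam and Spint2 were higher, and Rab25, Grhl2 and Ap1m2 had normalised levels that overlapped between the groups. For 3 of the 8 genes every null array lay above every wild type array after normalization, beside 36.0% of all tested genes. For 2 of the 8 every null array lay below, beside 31.8% of all tested genes. Nothing is read from these counts, since the genes were chosen with this contrast in view.

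**Figure D1:**
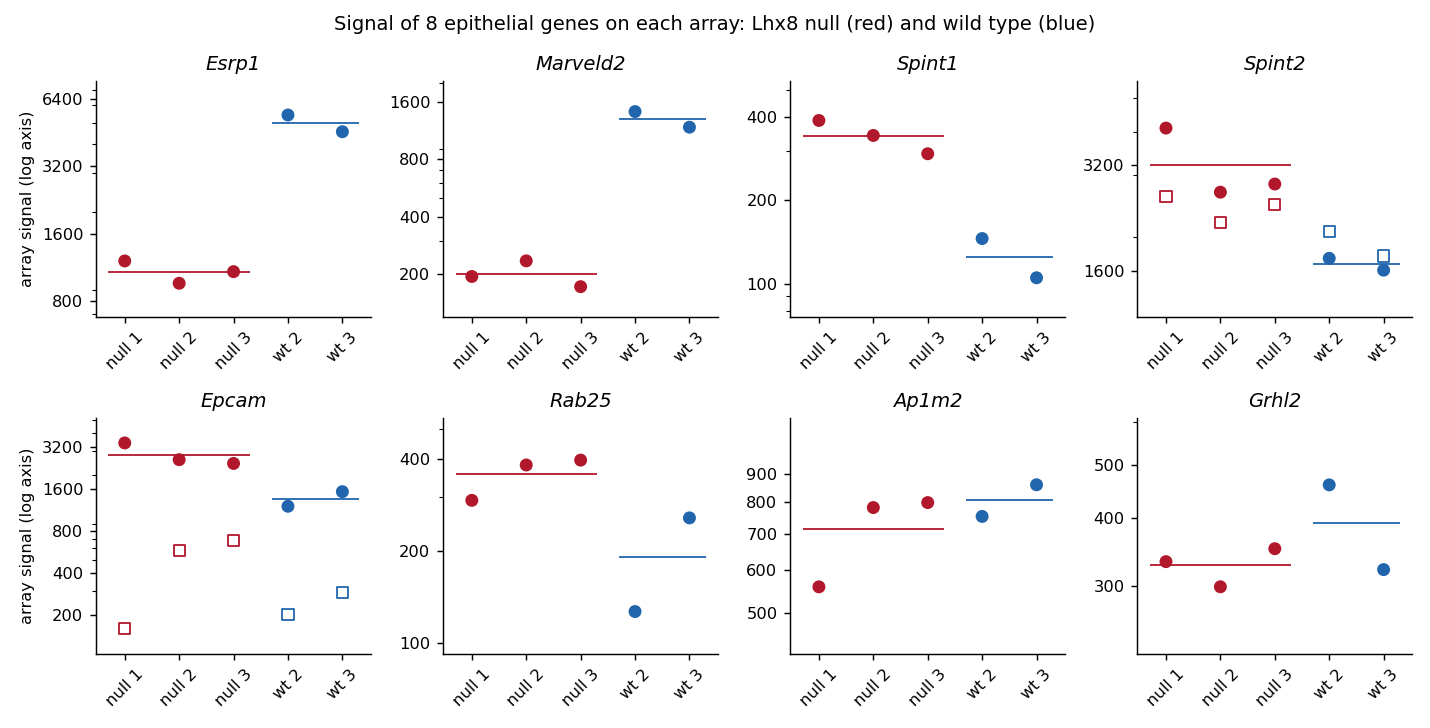
Array signal (log axis) of the 8 genes on each of 3 Lhx8 null (red) and 2 wild type (blue) arrays. Filled circles are each gene's brightest probe set with the group mean as a line, and open squares are other probe sets above the brightness limit. Esrp1 lies at 962.3 to 1209.8 on null and 4559.6 to 5413.9 on wild type arrays, and Spint1 at 294.4 to 388.2 on null and 105.0 to 145.5 on wild type arrays.

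The 250 bases before the start of transcription were taken from RefSeq (build GRCm38.p6) for 6 of the 8 genes, of which Marveld2, Spint1, Spint2 and Epcam are shown because they carry the lower and the higher groups. Capitals mark CAGGTG or its reverse complement CACCTG, the box bound by the repressors ZEB1 and SNAI1, which silence epithelial genes. The windows lie at chr13:100616972-100617221 (minus strand) for Marveld2, chr2:119237110-119237359 (plus strand) for Spint1, chr7:29281978-29282227 (minus strand) for Spint2 and chr17:87635729-87635978 (plus strand) for Epcam.
Marveld2: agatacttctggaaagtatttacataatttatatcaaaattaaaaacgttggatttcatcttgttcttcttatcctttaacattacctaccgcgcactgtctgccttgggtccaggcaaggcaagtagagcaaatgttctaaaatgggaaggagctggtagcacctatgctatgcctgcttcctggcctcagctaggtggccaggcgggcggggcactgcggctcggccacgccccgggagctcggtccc
Spint1: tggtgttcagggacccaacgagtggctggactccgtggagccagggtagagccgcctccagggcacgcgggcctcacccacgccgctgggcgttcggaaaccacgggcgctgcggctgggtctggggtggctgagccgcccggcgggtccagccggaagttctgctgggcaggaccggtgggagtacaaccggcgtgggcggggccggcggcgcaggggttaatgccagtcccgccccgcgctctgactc
Spint2: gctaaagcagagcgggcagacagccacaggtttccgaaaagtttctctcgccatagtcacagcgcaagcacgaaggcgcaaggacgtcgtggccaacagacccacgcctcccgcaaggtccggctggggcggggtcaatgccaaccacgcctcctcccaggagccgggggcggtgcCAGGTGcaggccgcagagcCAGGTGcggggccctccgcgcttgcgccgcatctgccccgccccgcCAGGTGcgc
Epcam: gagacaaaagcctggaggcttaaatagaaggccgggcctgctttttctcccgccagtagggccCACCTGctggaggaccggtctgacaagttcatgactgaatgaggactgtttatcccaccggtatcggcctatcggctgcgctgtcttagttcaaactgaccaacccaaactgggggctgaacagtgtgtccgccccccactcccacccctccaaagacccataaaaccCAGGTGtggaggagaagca

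The box occurred in 17.2% of all 32851 windows of this length. It was found 3 times for Spint2, with first bases 74, 55 and 9 bases before the start, and 2 times for Epcam, 187 and 19 bases before it. Rab25 had 2 copies and Ap1m2 had 4, so 4 of the 6 genes had the box, and Marveld2 and Spint1 had none in this window. The motifs AACCGGTT of grainyhead-like factors, TGATTG of LHX8 and TAATTG of NOBOX, searched on both strands, were in none of the 6 genes' windows, and in 0.116%, 12.7% and 7.17% of all windows. GC content was 50.4% for Marveld2, 72.8% for Spint1, 69.6% for Spint2 and 56.4% for Epcam, beside a median of 52.4% over all windows. Whether the box goes with the direction of a gene was not tested. Of the repressor genes, named after their values were seen, Snai1 rose by 1.04 (SE 0.22, limma adjusted p = 0.00467) and passed in all 13 other fits. Zeb1 rose by 0.59 (SE 0.12, limma adjusted p = 0.00294), and with arrays centred on their median it stood at 0.29 and did not pass. Their relatives Snai2 and Zeb2 were also named after their values were seen. Snai2 rose by 0.46 (SE 0.12, limma adjusted p = 0.0112), a call lost in some fits, among them that with centred arrays (0.21). Zeb2 had 0.14 (SE 0.19, limma adjusted p = 0.573) and passed with probe sets averaged (0.72). The part of these repressors in the differences was not tested. A match is a run of letters and not a measured site.

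Marveld2 encodes tricellulin, a membrane protein of tight junctions at the corners where several cells meet. Its signal was 194.8, 235.1 and 172.3 on null arrays, against 1418.0 and 1175.2 on wild type arrays. Every null array lay far below both wild type arrays. The means were 201 ± 31.8 (SD, n = 3) in null and 1297 ± 172 (SD, n = 2) in wild type ovaries, a log2 difference of -2.65 (SE 0.20). Only 0.788% of tested genes had a lower value.

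Esrp1 encodes an RNA-binding protein that directs epithelial patterns of exon choice. It had signals of 1209.8, 962.3 and 1084.0 on null arrays, against 5413.9 and 4559.6 on wild type arrays. The groups were again well apart, and null ovaries kept a mean of 1085 ± 124 (SD, n = 3) against 4987 ± 604 (SD, n = 2) in wild type ovaries. The log2 difference was -2.15 (SE 0.14), a level 4.44-fold lower in null ovaries, and 1.42% of tested genes lay below it.

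The germ cell markers fell on the same arrays. Of the 20 tested markers 20 fell and 0 rose, with a median log2 difference of -2.70. These markers, like every list below, were chosen with earlier results of these data known. Counts and p-values of list genes are therefore a description and not independent support. Over all tested genes 22.3% were lower, 25.6% were higher and the median was 0.04. Marveld2 at -2.65 and Esrp1 at -2.15 lay within the markers' range of -5.28 to -0.87. That range is wide and also held the epithelial genes Myo5b (-1.25) and Crb3 (-0.92). Nothing is read from this placement, since the 8 genes were chosen with their differences known. Gtsf1, a piRNA pathway gene, had the smallest p of the list, with a log2 difference of -4.91 (SE 0.13, limma adjusted p = 2.56e-07), and Elavl2, an RNA-binding protein gene, had -4.24. Taf7l did not pass without wild type replicate 2 (-0.59), nor Dnd1 without wild type replicate 2 (-1.29), without wild type replicate 3 (-1.24) or without the brightness filter, so 18 to 20 fell over the fits tried. The summed signal of the 20 markers was 13272.5 to 20663.5 on null arrays and 106342 to 113609 on wild type arrays. The lowest value of any marker was 22.3, below the brightness limit of about 150. The part of germ cell number in the Esrp1 and Marveld2 differences was not tested.

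Spint1 and Spint2 encode the Kunitz-type inhibitors HAI-1 and HAI-2, which restrain matriptase and related cell-surface serine proteases. Spint1 had signals of 388.2, 342.7 and 294.4 on null arrays, against 145.5 and 105.0 on wild type arrays. All 3 null arrays lay above both wild type arrays, with means of 342 ± 46.9 (SD, n = 3) in null and 125 ± 28.6 (SD, n = 2) in wild type ovaries and a log2 difference of 1.19 (SE 0.22). The wild type mean of Spint1 was below the brightness limit, a signal of about 150, so its size depends on the added constant.

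Spint2 had signals at the brighter of its 2 probe sets of 4092.2, 2685.4 and 2833.0 on null arrays, against 1738.7 and 1608.5 on wild type arrays. The groups did not overlap, null replicate 1 stood highest, and the log2 difference was 0.98 (SE 0.19). Its window above holds the repressor box 3 times, where that of Spint1 holds none. The other probe set gave 2615.7, 2203.4 and 2483.3 on null arrays, against 2074.6 and 1765.0 on wild type arrays. That probe set had the same order of groups at a smaller difference of 0.41 (SE 0.13). By its suffix the brighter one may bind other transcripts too.

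Epcam encodes an adhesion molecule of epithelia and of germ cells that also binds claudin-7. Its brighter probe set had signals of 3404.7, 2586.1 and 2429.7 on null arrays, against 1201.5 and 1527.5 on wild type arrays. The null arrays were all higher, with a mean of 2807 ± 524 (SD, n = 3) against 1365 ± 231 (SD, n = 2) in wild type ovaries and a log2 difference of 1.09 (SE 0.18). A second probe set, with the same suffix as the brighter one of Spint2, gave 160.2, 581.4 and 679.0 on null arrays, against 201.5 and 289.0 on wild type arrays. There null replicate 1 was the lowest of the 5 arrays, while it was the highest at the brighter probe set, and the difference of 0.55 (SE 0.59) was smaller than its error.

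**Figure D2:**
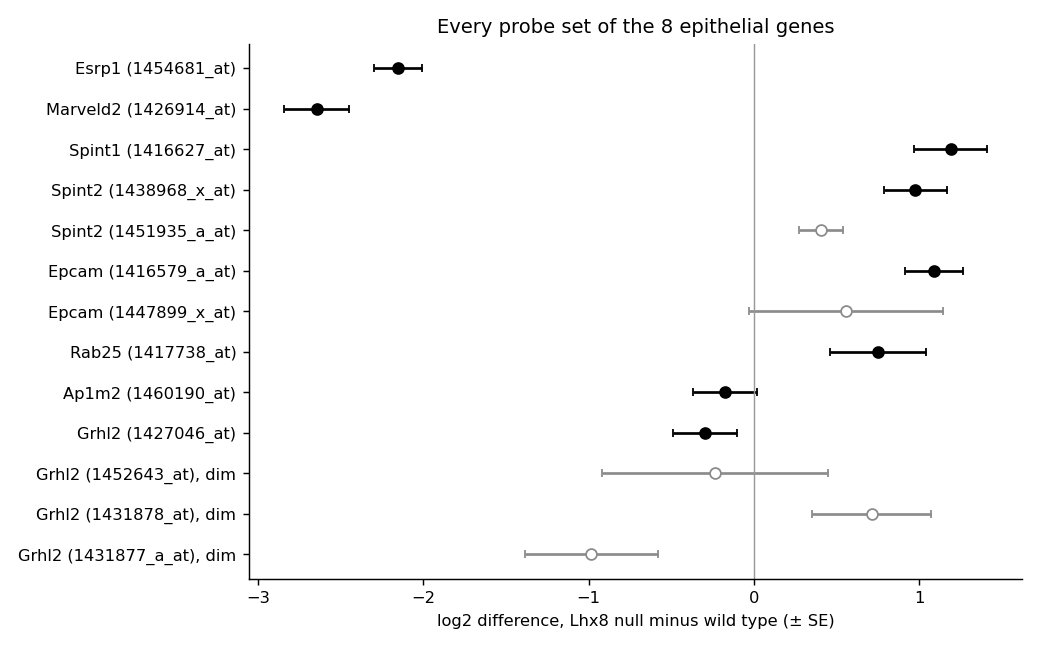
Log2 difference, Lhx8 null minus wild type, of all 13 probe sets of the 8 genes, with bars for the standard error. Filled points are the brightest probe set of each gene, open points the others, and dim marks 3 Grhl2 probe sets below the brightness limit. The probe sets of Epcam (1.09 and 0.55) and of Spint2 (0.98 and 0.41) share a direction, and those of Grhl2 do not.

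Rab25 encodes a small GTPase of the Rab11 family that acts in recycling endosomes of epithelia. It had signals of 293.1, 382.6 and 396.9 on null arrays, against 126.8 and 256.8 on wild type arrays. The deposited signals were higher on each null array, but after normalization null replicate 1 (8.14) lay below wild type replicate 3 (8.18). The log2 difference was 0.75 (SE 0.29), and it was 0.30 without wild type replicate 2 and 1.17 without wild type replicate 3.

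Ap1m2 encodes the epithelial mu subunit of the AP-1 clathrin adaptor, which sorts proteins to the basolateral membrane. It had signals of 559.0, 782.1 and 798.8 on null arrays, against 753.3 and 861.3 on wild type arrays. Null replicate 1 stood low and the other arrays were interleaved. The log2 difference of -0.18 (SE 0.19) was within its error and was 0.00 without null replicate 1.

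Grhl2 encodes a grainyhead-like transcription factor that activates junction genes in epithelia. Its brightest probe set had signals of 332.3, 298.8 and 351.0 on null arrays, against 459.7 and 321.3 on wild type arrays. Wild type replicate 3 fell among the null arrays, and the log2 difference was -0.30 (SE 0.20). It was -0.08 without wild type replicate 2 and -0.50 without wild type replicate 3. The other 3 probe sets of Grhl2 were below the brightness limit, with differences of -0.98, -0.24 and 0.71, so no direction is given for this gene.

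**Figure D3:**
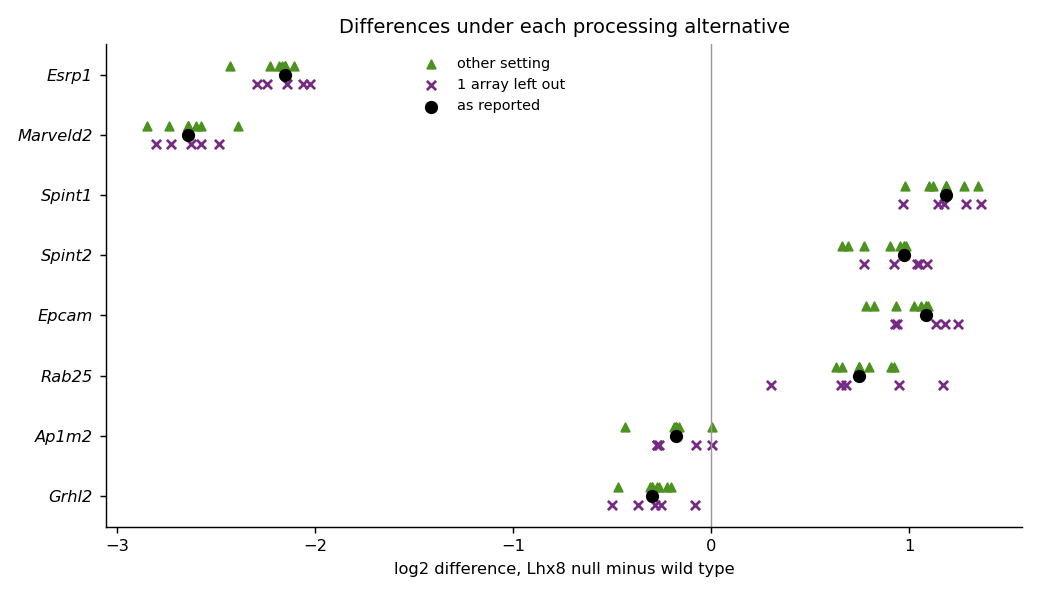
Log2 difference, Lhx8 null minus wild type, of each gene as reported (black), under 8 other settings (triangles, 2 or 3 of which leave the value as it is) and with 1 of the 5 arrays left out (crosses). Esrp1 stays between -2.43 and -2.03, Epcam between 0.78 and 1.25, and Ap1m2 reaches 0.00.

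Epithelial genes outside the 8 mostly rose. Of 34 tested genes of a list of the epithelial state, 21 rose and 3 fell, with a median log2 difference of 1.16, beside 25.6% higher, 22.3% lower and a median of 0.04 over all tested genes. The brightness filter favours genes bright in null ovaries, which tilts this count. Cldn3, Cldn7, St14 and Marveld3 were tested with mean wild type signals of 85.55, 137.5, 28.1 and 58.65. Ovol1, at 57.0 in null and 295.0 in wild type ovaries, was left out as dim. Without the filter 23 of 42 rose and 4 fell, beside 2871 and 2774 of all 18193 genes. The claudin genes Cldn3 and Cldn7 rose by 3.55 (SE 0.21, limma adjusted p = 6.53e-06) and 2.49 (SE 0.17, limma adjusted p = 1.29e-05). Their wild type signals were below the brightness limit, so the size of both depends on the added constant. Other probe sets of Cldn3 gave 3.35, 3.81 and 4.48. The transcription factor gene Klf5 rose by 2.72 and the keratin gene Krt19 by 2.06. Cldn7, whose product binds EPCAM, had mean signals of 928 ± 111 (SD, n = 3) in null and 138 ± 7.64 (SD, n = 2) in wild type ovaries. Spint1, Epcam and Spint2, at 0.98 to 1.19, lay near the list's median, but the list ran from -1.25 to 3.55, so nothing is read from this. Of all tested genes 94.1% had a lower value than Spint1, 92.6% than Epcam and 90.7% than Spint2. The summed signal of the 42 listed genes with a probe set was 42054 to 43477 on null arrays and 19824 to 21766 on wild type arrays.

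The 3 that fell were Myo5b, Cgn and Crb3. Myo5b, the motor that works with RAB11 and RAB25 vesicles, had a log2 difference of -1.25 (SE 0.14, limma adjusted p = 0.000185), with mean signals of 636 ± 26.8 (SD, n = 3) in null and 1584 ± 221 (SD, n = 2) in wild type ovaries. Its other 2 probe sets, dimmer than the first, were lower too, at -1.16 and -2.19. The polarity gene Crb3 had -0.92 (SE 0.19, limma adjusted p = 0.00431) and the tight junction gene Cgn -0.81 (SE 0.15, limma adjusted p = 0.00252). With the probe sets of a gene averaged Cgn stood at -0.66 and did not pass. Of 8 dim members 3 rose and 1 fell in the fit without the brightness filter. Named after their values were seen, Tjp3, Pkp3 and Macc1 were higher, and the transcription factor gene Ovol1 was lower at -2.27 (SE 0.34, limma adjusted p = 0.00152).

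Cdh1, singled out after its value was seen because E-cadherin is made by oocytes and epithelia alike, had signals of 888.2, 1651.0 and 1606.3 on null arrays, against 673.9 and 772.8 on wild type arrays. All null arrays were higher, with null replicate 1 nearest to wild type. The rise of 0.89 on the log2 scale (SE 0.26, limma adjusted p = 0.0194) did not pass with arrays centred on their median (0.62), without null replicate 2 (0.74), without wild type replicate 2 (0.79) or without wild type replicate 3 (0.98).

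Relatives of the 8 genes did not all follow them. Marveld3 and Marveld1, which share the MARVEL domain with Marveld2, rose by 1.81 (SE 0.25, limma adjusted p = 0.000494) and 1.40 (SE 0.12, limma adjusted p = 2.96e-05). Marveld3 had signals of 324.7, 307.0 and 223.0 on null arrays, against 63.9 and 53.4 on wild type arrays. Its groups lay apart in the direction opposite to Marveld2. Its other 2 probe sets, which never exceeded a signal of 58.9, gave 1.20 and -0.97. The brightest probe set of Marveld1 has the same suffix as that of Spint2. Another probe set of Marveld1 gave 0.99, and its dim ones gave 0.78 and 0.06. Ocln, the gene of occludin which also carries the MARVEL domain, had -0.21 (SE 0.15, limma adjusted p = 0.269).

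Ap1m1, the mu subunit gene used in most cell types, rose by 0.73 (SE 0.13, limma adjusted p = 0.00222) where Ap1m2 had -0.18. Rab11a fell, with a log2 difference of -0.46 (SE 0.12, limma adjusted p = 0.0107). Without wild type replicate 3 it stood at -0.40 and did not pass. Rab11b had 0.12 (SE 0.15, limma adjusted p = 0.554), and another of its probe sets, at 526.5 to 591.0 on null and 146.6 to 187.3 on wild type arrays, had 1.54. Esrp2, Grhl1, Grhl3 and Spint4 were too dim on average to be tested, and none passed in the fit without the brightness filter, with 0.61 for Esrp2, -0.69 for Grhl1, -0.55 for Grhl3 and -0.54 for Spint4. In all, 3 of 6 tested relatives rose and 1 fell, beside 25.6% and 22.3% of all tested genes. The difference between a gene and its relative was not tested, since the 8 genes were chosen with their values known.

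The genes of 2 proteases held by the SPINT inhibitors, St14 and Prss8, rose, as did the receptor genes Met and Mst1r of growth factors that such proteases activate. These are the 4 tested genes of this network, with 0 that fell and a median log2 difference of 1.64, beside 25.6% higher and 22.3% lower over all tested genes. St14, the gene of matriptase, had signals of 413.6, 421.4 and 324.2 on null arrays, against 34.3 and 21.9 on wild type arrays. The wild type signals were dim on both arrays, so the rise of 3.04 (SE 0.26, limma adjusted p = 3.43e-05) depends on the added constant. Prss8, the gene of prostasin, rose by 1.84 (SE 0.21, limma adjusted p = 0.000159), and Met, the receptor of hepatocyte growth factor, by 1.45 (SE 0.16, limma adjusted p = 0.000127). A dim probe set of Met, at 137.5 to 162.0 on null and 113.2 to 117.8 on wild type arrays, gave only 0.09. Mst1r rose by 0.56 (SE 0.19, limma adjusted p = 0.0358), a call lost in 6 of 13 other fits, among them those without null replicate 2 (0.56), null replicate 3 (0.56), wild type replicate 2 (0.57) or wild type replicate 3 (0.52). Of 4 dim members Hpn and Tmprss2, both membrane-bound proteases, were higher in the fit without the filter, at 2.23 and 1.97. The other 2, the protease gene Hgfac (-0.15) and the growth factor gene Hgf (-0.07), did not pass.

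Partners in trafficking, junctions and splicing moved both ways. Of 8 tested partners of RAB25 and AP-1, 3 rose and 1, Myo5b, fell, shares near the 25.6% higher and 22.3% lower over all tested genes. The small AP-1 subunit gene Ap1s1 rose by 0.86 (SE 0.12, limma adjusted p = 0.000517). Rab11fip5 and Rab11fip2, which encode RAB11 effectors, rose by 0.45 and 0.34, but with arrays centred on their median stood at 0.13 and 0.03 and did not pass. Neither passed without null replicate 2 (0.40 and 0.32), wild type replicate 2 (0.45 and 0.34) or wild type replicate 3 (0.45 and 0.33). Rab11fip1, a dim member, was lower in the fit without the brightness filter, at -1.13. Of 6 tested junction partners Cldn7 rose, Cgn fell and the other 4 did not pass, again near those shares. Of 8 tested genes whose transcripts ESRP1 acts on, or which encode other splicing regulators, 3 rose and 0 fell, beside the same 25.6% and 22.3%. Fgfr2, whose exon choice is set by ESRP1, rose by 0.93 (SE 0.15, limma adjusted p = 0.00108), while another of its probe sets, with signals up to 960.8, had -0.42 (SE 0.15) and did not pass. Mbnl1 and Ptbp1, which encode other splicing regulators, rose by 0.66 and 0.58. With probe sets averaged Fgfr2 (0.37) and Mbnl1 (0.33) did not pass, and with arrays centred on their median Ptbp1 (0.37) did not. Ctnnd1, the gene of p120-catenin and named after its values were seen, did not pass at -0.23 and was called lower with arrays centred on their median (-0.55), with the replicate block (-0.41) and without null replicate 1 (-0.42), but higher with probe sets averaged (0.51).

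The markers of neighbouring epithelia were mostly higher. Each count that follows stands beside 25.6% higher and 22.3% lower over all tested genes. Of 10 tested genes of oviduct and mesonephric tract epithelium 9 rose and 0 fell, with a median log2 difference of 2.79. Pax8, Wnt7a, Cdh16, Wfdc2, Ovgp1 and Cldn3 had mean wild type signals below the brightness limit, from 59.55 (Wnt7a) to 134.45 (Cdh16). They passed the filter through their null arrays, which tilts this count towards genes that rose. The size of their differences, and with it the median, depends on the added constant. Over the 14 genes with a probe set the summed signal was 27526 to 30934.5 on null arrays and 7879.4 to 9777.7 on wild type arrays. The lowest value of any of the 14 was 3.5. Of the 4 dim ones Lhx1 was higher and Gata3 lower in the fit without the brightness filter. Wfdc2 had mean signals of 6010 ± 418 (SD, n = 3) in null and 128 ± 20.3 (SD, n = 2) in wild type ovaries. Of 10 tested genes of the surface mesothelium 8 rose and 0 fell, with a median of 1.78 and a summed signal of 27222 to 29377.6 on null arrays and 11533 to 11811 on wild type arrays. Cldn3, Krt7, Krt8, Krt18 and Krt19 stand in the list of the epithelial state too. So do, among the tested genes named above, St14, Prss8, Marveld3, Ocln, Cldn7, Cgn and Myo5b. The counts of proteases, relatives and partners are thus not separate from that list's. Mesenchymal genes were mostly higher as well: 7 of 10 rose, with a median of 0.77 and a summed signal of 49049.3 to 52061.7 on null and 26962.3 to 32335.8 on wild type arrays. Fn1 rose by 2.52 and Twist2 by 1.68, and Cdh2 fell, with a log2 difference of -0.52 that did not pass in 6 other fits, among them those without null replicate 1 (-0.41) or 2 (-0.47) or wild type replicate 2 (-0.46) or 3 (-0.57). The part of these tissues in the higher Spint1, Spint2 and Epcam signals was not tested.

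**Figure D4:**
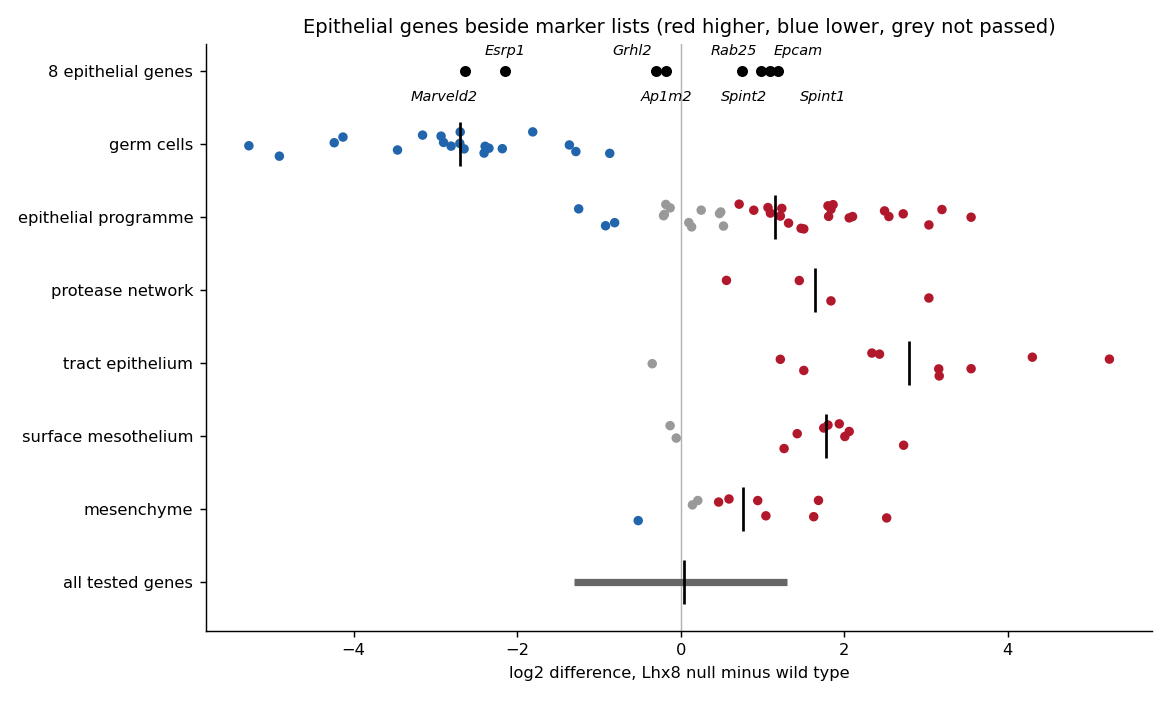
Log2 difference, Lhx8 null minus wild type, of the 8 epithelial genes (black) and of the tested genes of 6 lists, coloured red where called higher, blue where called lower and grey where not passed. Vertical bars are medians, and the grey bar spans the 5th to the 95th percentile of all 10916 tested genes (-1.30 to 1.29). Marveld2 and Esrp1 lie in the wide range of the germ cell genes, whose median is -2.70. Spint1, Epcam and Spint2 lie near the epithelial median of 1.16. Nothing is read from either placement, since the 8 genes were chosen with this contrast in view.

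The 3 genes outside the 8 with the nearest profile to each were found by the root mean square difference of centred log2 levels over the 5 arrays, which is a description that follows the group difference. For Esrp1 they were Taf5, Akap17b and Tmem184a, at 0.0445 to 0.0920. Taf5, which encodes a subunit of TFIID, had signals of 822.3, 625.5 and 755.8 on null arrays, against 3493.0 and 3192.5 on wild type arrays. For Marveld2 they were Akr1cl, Cd55 and Noct, at 0.138 to 0.162. For Spint1 they were Olfm1, Rab34 and Esyt1, for Spint2 Clcn5, Selenow and Fat1, and for Epcam Nfat5, Notch1 and Car11, at 0.0210 to 0.0711 for these 3. For Rab25 they were Idi1, Tmem158 and Qpct, for Ap1m2 Arl14ep, Psma1 and Cd3eap, and for Grhl2 Zfp213, Xkr8 and Ifngr1, at 0.0185 to 0.116. All 3 neighbours of Ap1m2 share its lowest value on null replicate 1.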

How the data were processed

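Array signals from 5 pools of mouse ovary RNA were used. The deposited intensities are linear and were scaled by the authors so that the mean after trimming 2% at each end was 500 (found from the values). The wild type arrays name the software GCOS, per the submitters' processing notes, and the null arrays name none in the sources used here. Groups came from the sample titles, and no wild type array numbered 1 was analysed here. Whether arrays shared a batch is not given in the sources used here.

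Signals were put on the scale log2(signal + 16) and normalised by quantiles (limma 3.58.1, R 4.3.3) after 64 control probe sets were left out. Of the rest 34945 had 1 gene symbol, 932 several and 9160 none, by an old platform annotation; a RefSeq table found 34741 of the first by gene identifier and changed 0 symbols. A gene's value was that of the probe set with the highest mean, and genes whose mean was below 7.37 on the log2 scale, the dimmest 40%, were left out. That mean runs over 3 null and 2 wild type arrays. Genes bright only in null ovaries thus pass more readily than genes bright only in wild type ovaries. This bears on every count of tested list genes. Null minus wild type was fitted with lmFit and eBayes with a variance trend, two-sided. Other probe sets and dim genes come from the same fit over all probe sets or all genes without that filter. The steps were tested on simulated arrays. Settings tried were the scaling, the constant (1 or 64), the filter, averaged probe sets, the variance trend, a stricter threshold, a block for replicate number and each array left out.

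The 8 genes and all lists were chosen with earlier results of these data known. Named genes were Lhx8, the 8 genes with every probe set, their relatives and the 3 nearest profiles of each of the 8. Of each other list and direction up to 4 genes with the smallest p were named too. Dim relatives, dim list members, Cdh1, Ctnnd1, Hgf, Hgfac, Snai1, Snai2, Zeb1, Zeb2, Dnd1 and Taf7l were named after their values were seen. The number of arrays limits the precision, and p-values measure only the spread between these pools. Figures were drawn with matplotlib 3.10.9.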

Additional observations from a re-analysis of the deposited data

How the results depend on the processing

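Of the 13 other fits of each gene, 2 or 3 leave the difference itself as it is by construction (no filter, no variance trend and, for genes with 1 probe set, averaged probe sets). In the other 10 or 11, Esrp1, Marveld2, Spint1, Spint2, Epcam and Rab25 kept their direction. Ap1m2 reversed to 0.00335 with the replicate block and ran from -0.273 to 0.00382 with 1 array left out, the highest without null replicate 1. Leaving out 1 array at a time, Rab25 ran from 0.30 to 1.17 and Grhl2, whose probe sets disagree, from -0.50 to -0.08. With arrays centred on their median Esrp1 stood at -2.43, Spint2 at 0.66 and Epcam at 0.78. Of the epithelial genes on the list, 18 to 24 rose and 2 to 4 fell under every setting. Over all genes, the 2791 higher became 1730 with arrays centred on their median and 1831 at adjusted p below 0.01, and leaving out 1 array gave 1803 to 2966 higher and 1619 to 2558 lower, both lowest without wild type replicate 3; the cause was not tested. The replicate numbers share 2 values between the groups. With them as a block 2 pairs remain, and 3068 genes were higher and 2583 lower, against 2791 and 2429 without it. Deviations from the group means correlated at -0.134 for the arrays numbered 2 and 0.101 for those numbered 3. The deviations of the 2 wild type arrays mirror each other, so these correlations cannot decide whether the numbers pair the arrays. The main fit took no pairing. Genes near background, such as Spint1, St14, Prss8, Cldn3, Cldn7, Marveld3 and Snai1 in wild type ovaries, are limited by signal over background. Marveld2 in null ovaries lies near the brightness limit as well. With 2 wild type arrays the spread in that group is poorly known.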
